A study of Mus musculus with 6 samples.

Results

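The genes described here code for the collagen IV chains and the laminin beta 2 chain of basement membranes, and the data are peaks of chromatin pulled down through Tug1, a long noncoding RNA. The members were the 7 genes Col4a1, Col4a2, Col4a3, Col4a4, Col4a5, Col4a6 and Lamb2, of 21900 protein-coding genes in the gene table used, and a peak was assigned to a gene when it lay inside the gene span or within 5 kb of it. Of 113114 merged regions in the series, 67 met this rule at the 7 genes, 62 of them inside a member's span and 5 in the 5 kb flanks. The study used mouse podocytes, the epithelial cells that cover the outer face of the glomerular filter, immortalised with a temperature-sensitive SV40 T antigen, grown at 33 degrees, differentiated at 37 degrees for 10 days and used at passages 10 to 12. In the assay, ChIRP-seq, biotinylated oligonucleotides capture an RNA from crosslinked, sonicated nuclei together with the DNA attached to it. The 48 probes along Tug1 were split into alternating even and odd sets, and each set was used in 2 pulldowns of the same kind of chromatin, here called even replicates 1 and 2 and odd replicates 1 and 2. Per the labels the groups differed in the probe set, and no drug or deletion was used. A pulldown with probes against another RNA was not analysed here, and the sources used here do not say whether replicates were separate cultures. Lists of recovered DNA carry no expression level, so the cell label could not be checked against podocyte marker genes.

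Collagen IV forms the network of every basement membrane. Its chains wind into trimers, and the trimers join through their ends. The alpha 1 and alpha 2 chains, coded by Col4a1 and Col4a2, make the widespread form that the embryonic glomerulus also uses. The alpha 3, alpha 4 and alpha 5 chains make the form that replaces it in the mature glomerular filter, where podocytes produce it, and inherited defects in their genes cause Alport syndrome. The alpha 6 chain joins alpha 5 in Bowman's capsule and other membranes. Laminin beta 2 pairs with laminin alpha 5 and gamma 1 in the mature filter, and its loss causes a congenital nephrotic syndrome. The collagen IV genes lie in 3 pairs whose members start close together and are transcribed away from each other, a layout called head-to-head.

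The starts of the pairs are the places where a single peak could touch both genes, and their sequences are shown for this reason. They come from RefSeq promoter windows of GRCm38.p6, the same assembly as mm10, which run from 250 bases before to 50 bases after a start. The table held 6 of the 7 members, and Col4a3 was not matched. Its strands were minus for Col4a1, Col4a4 and Col4a6 and plus for Col4a2, Col4a5 and Lamb2. For Col4a1 and Col4a2 the stretch printed is the 22 bases of chr8:11312805-11312826, plus strand, from the start of Col4a2 to the start of Col4a1. For Col4a4 it is the first 30 bases before its start, chr1:82586850-82586879, minus strand, which lie between that start and the first base of the Col4a3 span. For the third pair, the pieces lie in the 1274 bp between the gene spans, at chrX:141474096-141474326 on the minus strand for Col4a6 and chrX:141475169-141475369 on the plus strand for Col4a5. Capitals mark GGGCGG, the core of a GC box, and CCAAT, searched on both strands, and no matches overlapped in these pieces.
Col4a1/Col4a2: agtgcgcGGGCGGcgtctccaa
Col4a4: gtggccagcagccctgcccagattaagcgg
Col4a6: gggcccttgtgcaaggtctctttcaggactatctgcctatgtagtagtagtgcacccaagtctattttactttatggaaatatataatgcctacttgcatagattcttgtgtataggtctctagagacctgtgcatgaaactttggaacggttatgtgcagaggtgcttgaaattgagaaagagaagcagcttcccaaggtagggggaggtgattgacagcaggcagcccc
Col4a5: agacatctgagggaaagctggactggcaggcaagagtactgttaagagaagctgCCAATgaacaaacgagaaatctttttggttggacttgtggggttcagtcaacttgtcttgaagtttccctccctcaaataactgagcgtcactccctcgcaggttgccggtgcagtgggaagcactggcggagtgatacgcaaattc

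Over the full 300-base windows, GC content was 74% for Col4a1 and 73.7% for Col4a2, with 37 and 33 CG dinucleotides. It was 63.3% for Col4a4 (14 CG), 52.7% for Col4a5 (11 CG), 48.3% for Col4a6 (3 CG) and 44.0% for Lamb2 (4 CG). The median of 21263 windows of protein-coding genes was 56.3%, with 13 CG dinucleotides. GGGCGG was found in the windows of Col4a1, Col4a2, Col4a5 and Col4a6, and in 46.2% of all windows. CCAAT was found in those of Col4a1, Col4a2 and Col4a5, and in 38.2% of all windows. A match of letters is a description and shows no bound factor.

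None of the 6 member windows overlapped a peak in any of the 4 pulldowns. Among all windows, 4.75% overlapped a peak of at least 1 library, 1.78% and 1.09% for even and 1.22% and 1.58% for odd pulldowns, replicate 1 first, and with shares this low nothing can be read from 6 windows without a peak. The peak closest to a pair's starts was a single peak of even replicate 1 at chr1:82586498-82586741, 244 bp wide. It lay inside Col4a4, 108 to 351 bp from the Col4a4 start, and ended 180 bp before the first base of Col4a3 and 59 bp short of the Col4a4 window. Its score was 3100, a value shared by 78.6% of peaks in that list. The other libraries had no peak near that end: the nearest lay 19526 bp away in odd replicate 2, 77211 bp in odd replicate 1 and 95964 bp in even replicate 2. At the Col4a1 and Col4a2 starts the nearest peak was one of odd replicate 1 at chr8:11316538-11316745, inside Col4a2 and 3649 bp from the end of the Col4a1 span. The other libraries came no closer than 7860 bp (even replicate 1), 17649 bp (even replicate 2) and 42968 bp (odd replicate 2). Between Col4a6 and Col4a5 no library had a peak, and the nearest lay inside Col4a6 at 7794 bp (even replicate 1), 9905 bp (even replicate 2), 27901 bp (odd replicate 2) and 50316 bp (odd replicate 1). Within 2 kb of the 3 pairs of starts there was thus 1 peak in 1 library.

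**Figure D1:**
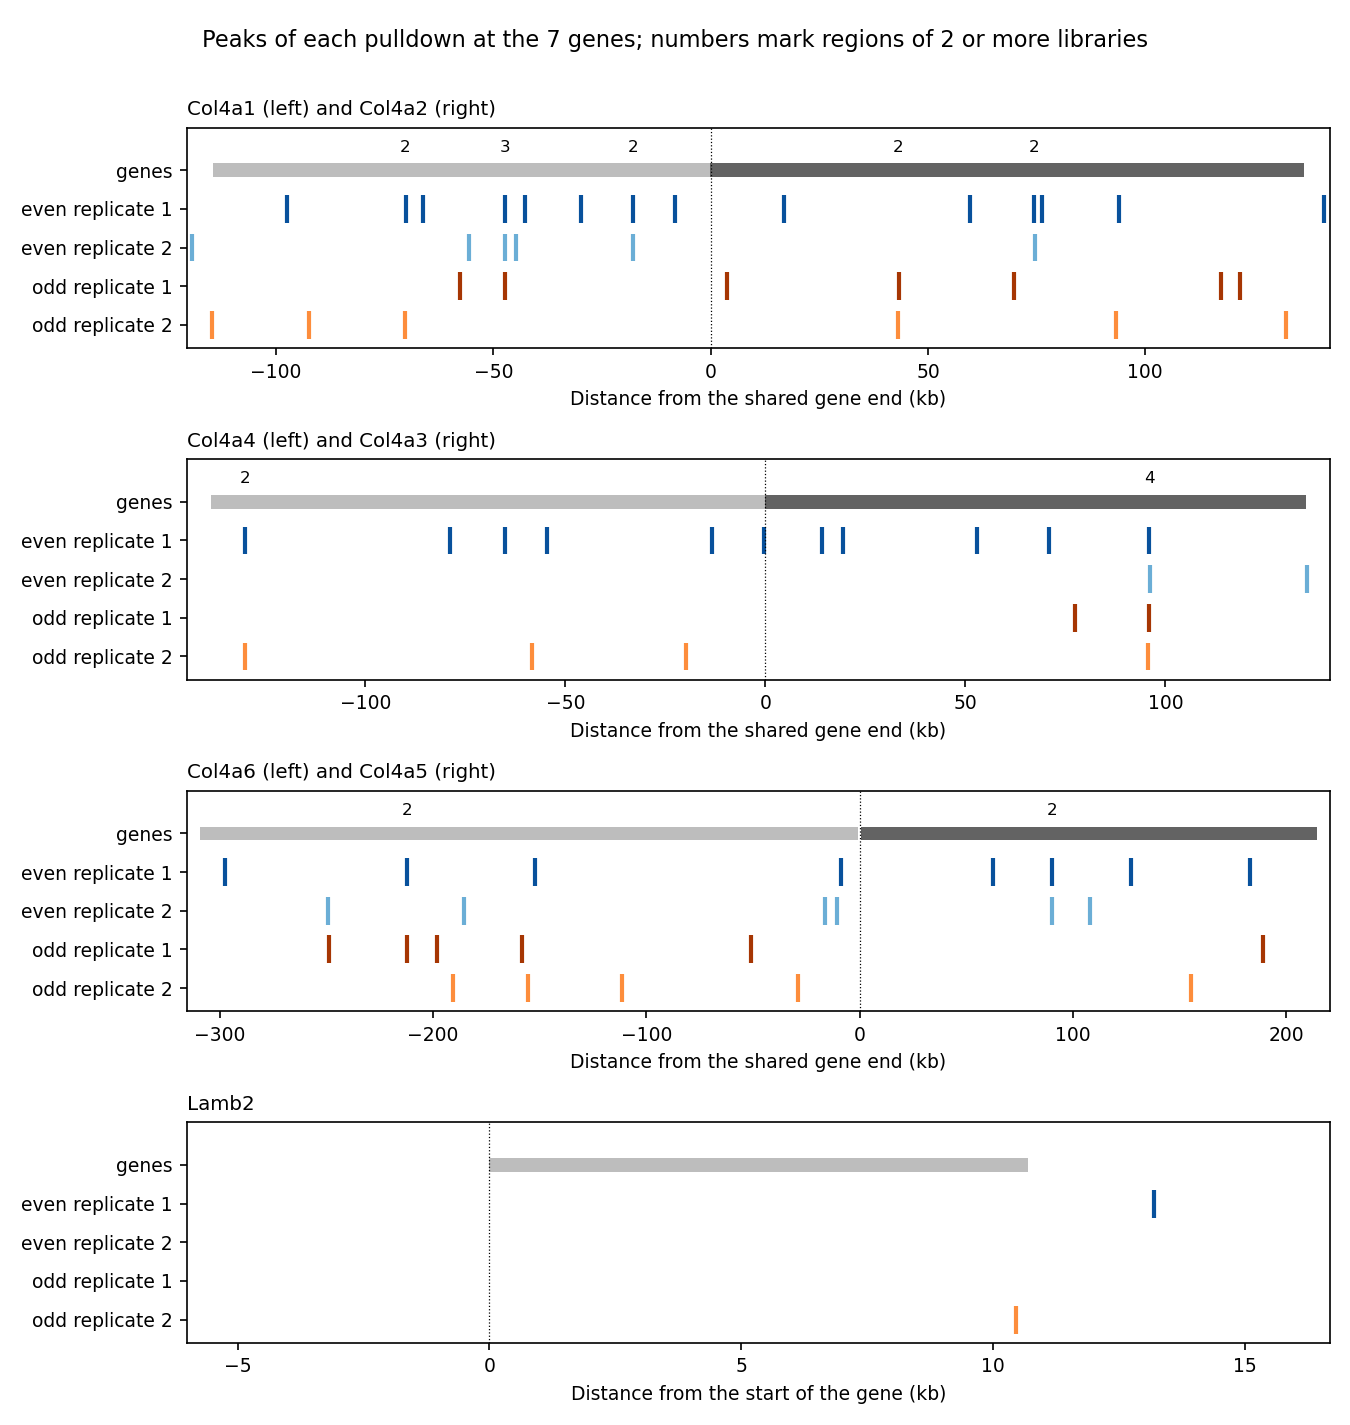
Peaks of the 4 pulldowns (coloured ticks, 1 row per library) along the 3 head-to-head collagen IV pairs and Lamb2 (grey bars), by distance in kb from the shared gene end or, for Lamb2, from the low-coordinate start of the gene. Numbers above the bars mark the 9 regions held by 2 or more libraries, which lie inside the genes and away from the shared ends.

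All 7 genes had a peak inside or within 5 kb in even replicate 1 and in odd replicate 2, and 5 of 7 had one in even replicate 2 and in odd replicate 1, where Col4a4 and Lamb2 had none. The shares over all protein-coding genes were 48.9% and 42.7% in even replicate 1 and odd replicate 2, and 35.5% and 40.1% in even replicate 2 and odd replicate 1. Long genes hold more peaks, and the 6 collagen genes are long, from 114467 to 308693 bp. Among the 1898 protein-coding genes of 100000 to 310000 bp, the shares were 91% and 79.3% for even and 83.5% and 86.7% for odd pulldowns, replicate 1 first. The collagen genes, at 6, 5, 5 and 6 of 6, were close to that background.

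A region of at least 2 libraries was found at 6 of the 7 genes, all except Lamb2, against 23.3% of all protein-coding genes and 55.3% of those of collagen gene length. Regions that joined the probe sets, with an even and an odd library, the usual demand of this assay because the probe sets share no oligonucleotide, were found at 4 genes, Col4a1, Col4a3, Col4a4 and Col4a6, against 16% of all genes and 40.2% of those of similar length. Regions of at least 3 libraries were found at Col4a1 and Col4a3, against 6.88% and 18.1%. A region joining peaks of all 4 libraries was found at Col4a3 alone, against 1.6% and 4%. Of the 67 regions, 58 (86.6%) came from 1 library, 7 (10.4%) from 2, 1 from 3 and 1 from 4, beside 88.6%, 8.72%, 2.06% and 0.661% of all merged regions. Those with both probe sets numbered 5 of 67 (7.46%), beside 7.05% of all regions. The spread of regions over libraries at these genes was therefore near that of the whole series. The 9 regions of 2 or more libraries rested largely on even replicate 1, which took part in 8 of them: 3 were left without that library. The 5 regions of both probe sets became 2 when even replicate 1 was left out, and 3 when either odd library was left out.

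Col4a1 (gene ID 12826, chromosome 8, 11198423 to 11312889) codes for the alpha 1 chain and had 19 peaks in its window, beside 17 at Col4a6, the next highest count, an order that rests on even replicate 1. Its window held 8 peaks in even replicate 1, 5 in even replicate 2, and 3 in each odd library. These merged into 15 regions, 12 of 1 library, 2 of 2 and 1 of 3. The odd replicate 1 peak at 11316538 to 11316745 lies inside Col4a2 and enters the counts and densities of both Col4a1 and Col4a2. Totals over the 7 genes count it once. The region of 3 libraries, at 11265221 to 11265729, lay 47160 bp inside the gene from its high-coordinate end, where Col4a1 starts, and also inside Gm32709, a lncRNA gene within Col4a1. Its score was 3100 in even replicate 1, 500 in even replicate 2 (percentile 87.8 of that list) and 3100 in odd replicate 1. The 3 peaks nearly coincided. Those of even replicate 1 and odd replicate 1 began at the same base, those of both even replicates ended at the same base, and 430 bp were covered by all 3. Odd replicate 2 had no peak closer than 22484 bp to the region.

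The other shared regions of Col4a1 involved fewer libraries. At 11242220 to 11242842, peaks of even replicate 1 (score 2894, percentile 16.4) and odd replicate 2 (score 152, percentile 21.9) shared 216 bp, and both stood low in their lists. At 11294877 to 11295156, peaks of both even replicates shared 257 bp, with scores of 3100 and 528 (percentile 89.7 in even replicate 2), and no odd peak lay closer than 21382 bp. Past the low-coordinate end of the gene, where transcription of a minus-strand gene stops, odd replicate 2 had a peak 53 bp and even replicate 2 one 4836 bp outside, both in the lncRNA gene Gm15418.

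Col4a2 (gene ID 12827, chromosome 8, 11312805 to 11449287) codes for the alpha 2 chain, and its span overlaps that of Col4a1 by 85 bp. Its window held 6 peaks in even replicate 1, 1 in even replicate 2, 5 in odd replicate 1 and 3 in odd replicate 2. Each of its shared regions came from a single probe set, so none of its 13 regions joined even and odd libraries. The even replicates shared 307 bp at 11387100 to 11387567, with scores of 3100 and 276 (percentile 52.6 in even replicate 2), and the nearest odd peak was 4125 bp away in odd replicate 1. The odd replicates shared 202 bp at 11355857 to 11356257, with scores of 3100 and 291 (percentile 67.9 in odd replicate 2), and the nearest even peak was 16231 bp away. The last peak of the window, from even replicate 1 at 11453738 to 11454152, lay past the gene and inside Rab20, which codes for a small GTPase. The 2 genes of this pair were the only members with 2 or more shared regions.

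Col4a3 (gene ID 12828, chromosome 1, 82586921 to 82722059) codes for the alpha 3 chain, the autoantigen of Goodpasture disease. Its window held 6 peaks in even replicate 1, 2 in even replicate 2, 2 in odd replicate 1 and 1 in odd replicate 2. The region joining all 4 libraries, at 82682603 to 82683470, lay 95682 bp from the low-coordinate end of the gene. Its scores were 2506 in even replicate 1 (percentile 9.96), 246 in even replicate 2 (percentile 44.7), 3100 in odd replicate 1 (the highest value of that list, at which nearly all its peaks are tied) and 549 in odd replicate 2 (percentile 93.7). The peak stood high in the list of odd replicate 2, below the median in even replicate 2 and low in even replicate 1, while odd replicate 1 could not rank it.

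The 4 peaks of the Col4a3 region formed a chain and not a stack. Odd replicate 2 covered 82682603 to 82682848, even replicate 1 covered 82682672 to 82683047, odd replicate 1 covered 82682834 to 82683075 and even replicate 2 covered 82682998 to 82683470. No base was covered by all 4, and the peaks of even replicate 2 and odd replicate 2 were 149 bp apart. The longest shared stretch was 214 bp, between even replicate 1 and odd replicate 1. The even replicates shared 50 bp and the odd replicates 15 bp. Among the 748 regions of the series that join all 4 libraries, 24 (3.21%) had no base covered by all of them, and the median region had 309 such bases. When peaks were joined only where the overlap made up at least 50% of both widths, no member had a region of all 4 libraries. None had one when each list was reduced to peaks that reached its median score. That median was 3100 in both replicate 1 lists, where 78.6% (even) and 99.9% (odd) of peaks share this value. The cut was therefore weaker there than in the replicate 2 lists. Without odd replicate 2, 2 genes, Col4a1 and Col4a3, had a region of the 3 libraries that were left.

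**Figure D2:**
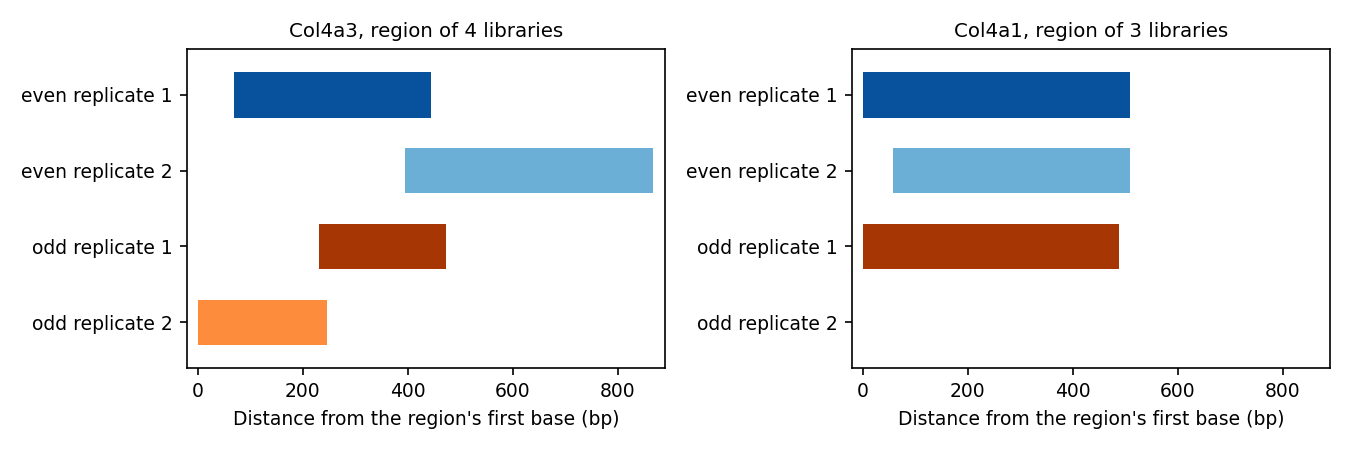
Extent of the peaks (bars, 1 row per library) in the Col4a3 region of 4 libraries and the Col4a1 region of 3 libraries, by distance in bp from the first base of the region. The Col4a1 peaks share 430 bp, while the Col4a3 peaks follow each other and leave 149 bp between those of odd replicate 2 and even replicate 2.

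Outside this region, the peaks of Col4a3 came from 1 library each. Even replicate 1 had 4 more inside the gene and 1 at the shared end with Col4a4, odd replicate 1 had 1 inside, and even replicate 2 had 1 at 82722135 to 82722603, 76 bp past the high-coordinate end and inside the lncRNA gene C430014B12Rik (score 153, percentile 12.3). By the smallest sum of absolute differences between the 4 score percentiles, the regions of all 4 libraries most like that of Col4a3 were at Adgb (sum 32.5 percentile points), Amy2a2 (43.2) and Gm21119 (46.4). Adgb codes for androglobin and Amy2a2 for a pancreatic amylase. Their percentiles in even replicates 1 and 2 and odd replicate 2 were 17.5, 69.4 and 94.0 for Adgb, 15.3, 31.9 and 68.7 for Amy2a2, and 16.5, 52.7 and 61.8 for Gm21119, with 50.04 in odd replicate 1 for each. Nearly all peaks of odd replicate 1 are tied at that percentile, so the likeness rests on the other libraries. Bases covered by all 4 libraries numbered 360 at Adgb, 239 at Amy2a2 and 0 at Gm21119, which in this was like Col4a3.

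Col4a4 (gene ID 12829, chromosome 1, 82448419 to 82587034) codes for the alpha 4 chain, and its span overlaps that of Col4a3 by 114 bp. Its window held 6 peaks in even replicate 1 and 3 in odd replicate 2, and none in even replicate 2 or odd replicate 1. Its shared region joined the 2 libraries with peaks, at 82456670 to 82457077, with scores of 3100 in even replicate 1 and 192 in odd replicate 2 (percentile 39.8). They shared 258 bp, the whole of the odd replicate 2 peak. Even replicate 2 had its nearest peak 44085 bp away and odd replicate 1 had its nearest 207168 bp away. A peak of even replicate 1 at 82521732 to 82522139 had the highest score of that library at the 7 genes, 3137 (percentile 98.6), and no other library had a peak there. The even replicate 1 peak at the shared end, 82586498 to 82586741, enters the counts and densities of both Col4a3 and Col4a4. Totals over the 7 genes count it once.

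Col4a6 (gene ID 94216, chromosome X, 141165403 to 141474095) codes for the alpha 6 chain and is the longest member. Its window held 5 peaks in odd replicate 1 and 4 in each of the others, the most uniform counts of any member. Of its 16 regions, 15 came from 1 library. At 141262464 to 141262730, peaks of even replicate 1 and odd replicate 1 shared 198 bp, both with a score of 3100. Per the file names, both lists were called against the same input. Even replicate 2 and odd replicate 2 had their nearest peaks 26070 and 21009 bp away.

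Col4a5 (gene ID 12830, chromosome X, 141475370 to 141689236) codes for the alpha 5 chain, whose gene is mutated in most families with Alport syndrome. Its window held 4 peaks in even replicate 1, 2 in even replicate 2 and 1 in each odd library. At 141564545 to 141565273 both even replicates had a peak, with scores of 3100 and 203 (percentile 28.5 in even replicate 2). They shared 246 bp, the whole of the narrower peak, and no odd peak lay closer than 64715 bp. None of the 7 regions at Col4a5 joined even and odd libraries.

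Lamb2 (gene ID 16779, chromosome 9, 108479847 to 108490530) codes for laminin beta 2 and, at 10684 bp, is the shortest member. Its window held 1 peak in even replicate 1 and 1 in odd replicate 2, and none in the other libraries. The odd replicate 2 peak, at 108490163 to 108490437, lay inside the gene and ended 93 bp before its high-coordinate end, which is the downstream end of this plus-strand gene, with a score of 420 (percentile 86.4). The even replicate 1 peak, at 108492838 to 108493248, lay 2308 bp past the gene in Usp19, which codes for a deubiquitinase, with a score of 3100. They did not overlap, so Lamb2 had no shared region. The RefSeq promoter window of Lamb2 was 10252 bp from the nearest peak of any library.

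Counts were then set against the length of the windows. Per 100 kb of window, Col4a1 had 6.43 and 4.02 peaks for even replicates 1 and 2, then 2.41 for each odd one (the order used from here on), a mean of 3.82 ± 1.90 (SD, n = 4). Col4a2 had 4.10, 0.683, 3.41 and 2.05 (2.56 ± 1.51), Col4a3 had 4.13, 1.38, 1.38 and 0.689 (1.89 ± 1.53) and Col4a4 had 4.04, 0, 0 and 2.02 (1.51 ± 1.93). Col4a6 had 1.26, 1.26, 1.57 and 1.26 (1.33 ± 0.157) and Col4a5 had 1.79, 0.893, 0.447 and 0.447 (0.893 ± 0.632). Lamb2, with 1 peak or none in a short window, had 4.83, 0, 0 and 4.83 (2.42 ± 2.79). In order of means the genes ran Col4a1, Col4a2, Lamb2, Col4a3, Col4a4, Col4a6 and Col4a5. Each neighbouring pair in this order differed by less than the SD of at least 1 of its genes over the libraries. That SD is the spread between libraries, whose lists differ in length. It does not measure the spread of a difference between genes within each library, so the order was not tested.

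All protein-coding windows together had 1.82, 1.08, 1.25 and 1.44 peaks per 100 kb. The windows of the 7 genes together had 3.09, 1.27, 1.36 and 1.46, which is 1.70, 1.18, 1.09 and 1.01 times as many (mean 1.25 ± 0.310, SD, n = 4). The ratio was above 1 in 4 of 4 libraries, and its excess lay mainly in even replicate 1 and on chromosome 8. Against protein-coding windows of the same chromosomes, a comparison chosen after seeing the data, it was 1.70, 1.06, 1.08 and 0.934 (mean 1.19 ± 0.343), above 1 in 3 of 4. Without Col4a1 and Col4a2 the ratio was 1.31, 0.888, 0.764 and 0.827 (mean 0.948 ± 0.247), above 1 in even replicate 1 only. For Col4a1 and Col4a2 it was 2.95, 2.14, 2.15 and 1.59 (mean 2.21 ± 0.557). Protein-coding windows of chromosome 8 as a whole were also dense, at 2.71, 1.91, 1.84 and 2.53 peaks per 100 kb. Against these, Col4a1 and Col4a2 had 1.98, 1.20, 1.46 and 0.909 times as many peaks (mean 1.39 ± 0.453), so odd replicate 2 fell below its own chromosome. For Col4a3 and Col4a4 the ratio to chromosome 1 was 2.39 in even replicate 1 and 0.690, 0.641 and 1.12 in the other libraries. For Col4a5 and Col4a6 the ratio to chromosome X was 1.25, 1.14, 1.26 and 0.745.

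**Figure D3:**
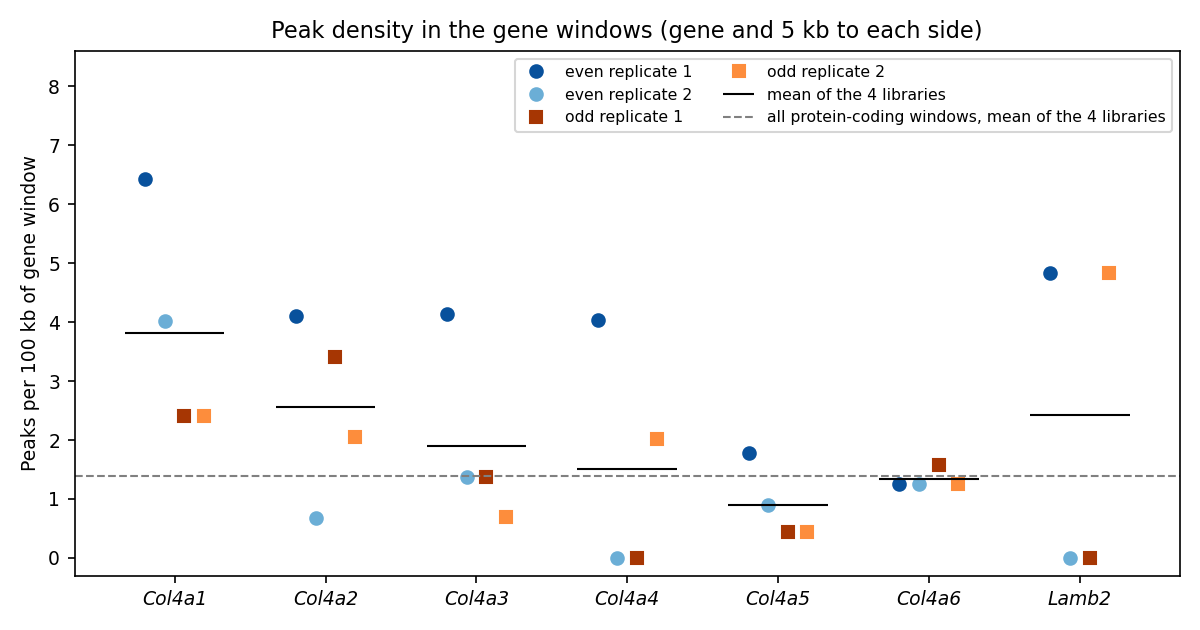
Peaks per 100 kb of window (gene and 5 kb to each side) for each gene, with 1 point per library (circles even, squares odd), the mean of the 4 libraries as a black bar and the mean over all protein-coding windows as a dashed line. Even replicate 1 is the highest point at Col4a1, Col4a2, Col4a3, Col4a4 and Col4a5, and Col4a6 shows little spread.

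The probe sets did not differ in the number of peaks at these genes beyond the spread between replicates. The 7 windows held 34 and 14 peaks in even replicates 1 and 2 (mean 24 ± 14.1, SD, n = 2) and 15 and 16 in odd replicates 1 and 2 (15.5 ± 0.707, n = 2). The groups overlapped, since even replicate 2 had the fewest peaks of all and even replicate 1 the most. The difference of 8.5 peaks had an exact two-sided permutation p of 1, in a design of 2 against 2 that cannot go below 0.333. Per 10000 peaks of the library's list, the values were 8.35 and 5.28 for even and 5.35 and 4.58 for odd pulldowns, with an exact permutation p of 0.667. Without even replicate 1 the difference turned, to 1.5 peaks fewer in the even library, and without even replicate 2 it was 18.5. Of the 58 regions of 1 library, even replicate 1 held 26, even replicate 2 held 9, odd replicate 1 held 11 and odd replicate 2 held 12. At Col4a3 and Col4a4 the imbalance was widest, with 9, 1, 1 and 2 such regions, and at Col4a5 and Col4a6 it was nearly absent, with 6, 5, 5 and 5. The lists themselves were unequal in length, with 40725, 26529, 28047 and 34968 peaks. The counts were not set against the split of all 1-library regions of the series, so no trait of these genes is read from them.

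Scores at these genes were read as percentiles of their own list. In the replicate 1 lists most peaks cannot be ranked against each other, since 78.6% of even replicate 1 and 99.9% of odd replicate 1 peaks share the value 3100. This value stands at percentile 58.8 and 50.04 when tied peaks take the middle of their tie, although no peak of odd replicate 1 and only 788 of 40725 in even replicate 1 scored higher. The files do not say whether 3100 is a ceiling of the score, and a percentile of 58.8 or 50.04 therefore does not place a peak in the middle of its list. In even replicate 2 the 14 peaks ran from 153 to 546, with a median of 303 against 265 for the list (median percentile 59.4, range 12.3 to 90.8). In odd replicate 2 the 16 peaks ran from 137 to 549, with a median of 260 against 221 (median percentile 60.8, range 16.5 to 93.7). In even replicate 1, 24 of 34 peaks had 3100, 9 were lower and 1 was higher. All 15 peaks of odd replicate 1 had 3100. Peaks of shared regions had the lower median in both replicate 2 lists, but they were few and the ranges overlapped. In even replicate 2 the 5 shared peaks had a median of 276 (203 to 528) and the 9 unshared ones 314 (153 to 546). In odd replicate 2 the medians were 241 (152 to 549) for 4 shared and 260 (137 to 420) for 12 unshared peaks.

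**Figure D4:**
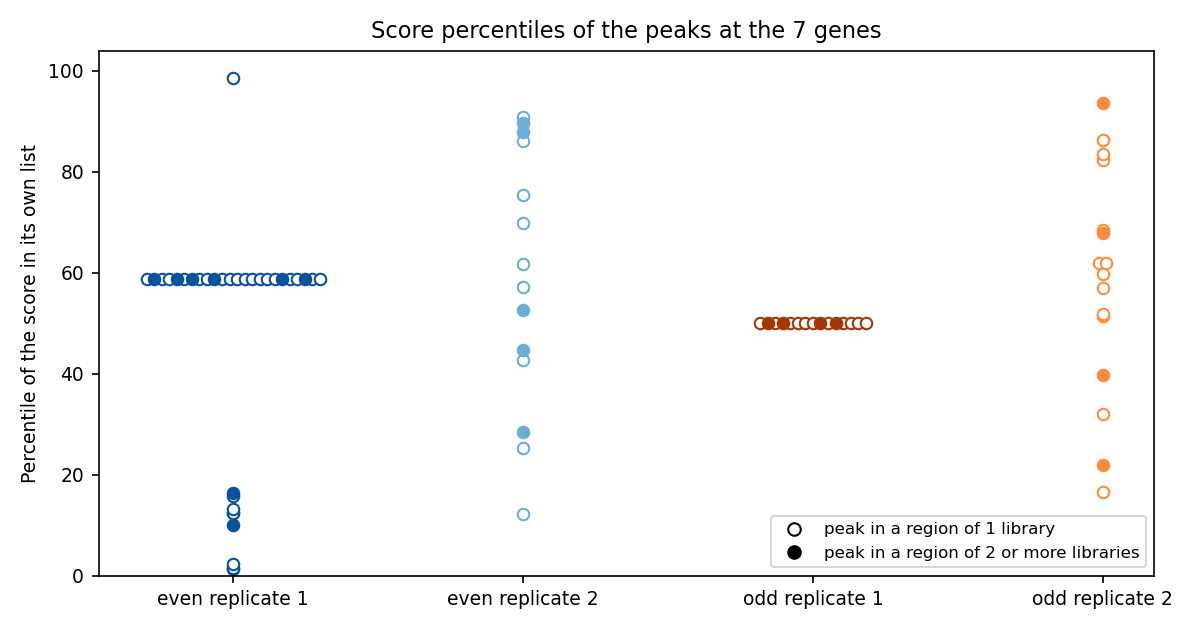
Percentile of each peak's score within its own list, for the 34 and 14 even and the 15 and 16 odd peaks at the 7 genes, replicate 1 first (filled points, peaks in regions of 2 or more libraries; open points, peaks of 1 library). Ties at a score of 3100 form the rows at 58.8 and 50.04, and the replicate 2 lists spread over most of the range.

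Other genes of the same membrane were taken from lists of its further chains, its receptors and its assembly enzymes. Of 21 laminin, nidogen, proteoglycan and other chain genes, 10 (47.6%) had a region of at least 1 even and 1 odd library, 5 (23.8%) had one of at least 3 libraries and 2 (9.52%) one of all 4, beside 16%, 6.88% and 1.6% of all protein-coding genes. The median length of these genes was 104924 bp, and they ranged from below to above the collagen gene lengths, so neither this background nor that of 100000 to 310000 bp matches them. The regions of all 4 libraries were in Lama1, which codes for the laminin alpha 1 chain of early basement membranes, and in Lamb3, which codes for the beta 3 chain of skin laminin. That in Lama1 (chromosome 17, 67741283 to 67741681) scored 798 in even replicate 2 and 1132 in odd replicate 2, percentiles 97.5 and 99.2, and had 370 bp covered by all 4 libraries. That in Lamb3 (chromosome 1, 193323206 to 193323771) scored 339 and 894 there, percentiles 67.2 and 98.5, with 238 bp covered by all 4. Both differed in this from the Col4a3 region, which, like the region at Gm21119, had no base in all 4.

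Regions of 3 libraries with both probe sets were found in Lama5, in Lamc3, which codes for the laminin gamma 3 chain, and in Frem1, which codes for an adhesion protein of embryonic basement membranes. Lama5, the alpha chain that assembles with laminin beta 2 in the mature filter, had one at chromosome 2, 180217460 to 180217925, from both even replicates (scores 3100 and 164, percentile 15.7 in even replicate 2) and odd replicate 1 (3100). Lamc1, which codes for the gamma chain of the same trimer, had 12 regions, and each came from 1 library. Of the 3 genes of that laminin, therefore, Lama5 alone had a shared region. A region of at least 2 libraries was found at 23.3% of all protein-coding genes, so nothing can be read from 1 of 3.

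Of 11 receptor genes, 2 had a region of both probe sets, Itga1, the alpha subunit of a collagen-binding integrin, and Ddr2, a collagen receptor kinase. Each joined even replicate 1 and odd replicate 1, whose lists were called against the same input, per the file names. Itga3 and Itgb4, which code for subunits of laminin-binding integrins, had no peak in any library, nor did P4hb and Lox of the assembly list. In single libraries, 35.5% to 48.9% of all protein-coding genes had a peak. The share with no peak in any library is not given here, so nothing is read from these genes. Of 17 genes for assembly and crosslinking, 3 had such a region, and each joined even replicate 1 and both odd replicates: Serpinh1, the collagen chaperone HSP47 (chromosome 7, 99353388 to 99353877, outside the gene), Loxl3, a lysyl oxidase-like enzyme (chromosome 6, 83029404 to 83029840, outside the gene), and Colgalt1, a collagen galactosyltransferase (chromosome 8, 71621218 to 71621969, inside). In Serpinh1 and Loxl3 the 3 peaks shared 277 and 267 bp, and in Colgalt1 they formed a chain with no base in common. The shares with both probe sets, 18.2% of receptor and 17.6% of assembly genes, stood beside 16% of all protein-coding genes. For regions of at least 3 libraries the shares were 0 of 11 receptor genes and 3 of 17 assembly genes (17.6%), beside 6.88% of all.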

How the data were processed

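Peak lists of 4 Tug1 pulldowns, 2 per probe set, were analysed; 2 input libraries entered only through the authors' peak calling. Reads were aligned to mm10 with Bowtie2 2.1.0, per the submitters' processing notes. Each deposited list was called against the input of the same number, per the file names, without pooling. The deposited score per peak is the authors' and was used within a list only; its scale and the MACS version, threshold and duplicate handling are not stated in those sources. Scores pile up at 3100 in the replicate 1 lists. Lists hold no read counts, so depth is unknown.

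Positions are 1-based. Regions were formed by merging peaks that share 1 bp or more. Genes came from a RefSeq table of GRCm38.p6. Groups followed the sample titles. Even and odd counts were compared by an exact permutation test; everything else is description. Members and lists were chosen with earlier results of these data known. Named genes were all 7 members. From the other lists they were those with a region of all 4 libraries, then up to 3 per list with both probe sets. The latter were taken by number of libraries and alphabet. Itga3, Itgb4, Lamc1, P4hb and Lox were added after their values were seen. Merging and counting were tested on simulated lists. Software was Python 3.11.15 with matplotlib 3.10.9, numpy 2.4.6 and pandas 2.3.3. A joined list of the series was not used here.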

Additional observations from a re-analysis of the deposited data

How the results depend on the processing

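Of 50 recalculated values, 39 kept to the rule set for their kind, 10 moved and 1 turned. The rule was 1.5 times for a count and 1 SD for a mean; for the even minus odd difference it was the direction and the side of the threshold alone, whatever the size or unit, and no such difference could pass. Counting only gene spans or 10 kb around them left 9 regions of 2 or more libraries, 5 of both probe sets and 1 gene with a region of all 4 libraries. A cut at each list's median score was weaker in the replicate 1 lists, where that median was the tied value 3100. Peaks at or above the median score of their list gave 2 regions of both probe sets and 0 genes with a region of all 4. A reciprocal overlap of 50% gave 0 such genes, as did asking for 1 base covered by all 4 libraries, a setting chosen after seeing the data. Leaving out each library in turn gave 3 to 7 regions of 2 or more libraries, 2 to 5 of both probe sets, 1 to 2 genes with a region of all libraries left, a density ratio of 1.10 to 1.33, and an even minus odd difference of -1.5 (without even replicate 1) to 18.5 peaks. The mean of the lists' median percentiles was 57.3 with ties at their middle and 79.6 with ties counted in full, and ties at 3100 fix it in both replicate 1 lists, so its small movement in other settings says nothing about stability. Against the same chromosomes the density ratio was 1.19. Without Col4a1 and Col4a2 it was 0.948. That value counted as kept because it moved by less than 1 SD (0.310), although it fell below 1. With the replicate block, pairing pulldowns of the same number, the even minus odd difference of 8.5 peaks had an exact sign-flip p of 1 (smallest possible 0.5); same-numbered pulldowns share an input and nothing else is stated of them. In bases covered the difference was 3986, with an exact permutation p of 0.667. Read depth is not known, and it limits every comparison of peak numbers.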

Other observations

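Peaks of different libraries that overlapped at the 7 genes shared a first or last base in 2 of 15 pairs (13.3%), both in the Col4a1 region of 3 libraries. In the whole series this was so for 802 of 21828 overlapping pairs (3.67%), and 11 pairs had both edges equal. The Col4a1 edges were picked out with their values in view. Neighbouring genes that held the peaks in the 5 kb flanks were Gm15418 beside Col4a1, C430014B12Rik beside Col4a3, Rab20 beside Col4a2 and Usp19 beside Lamb2.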
